A study of Mus musculus with 36 samples.

Results

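The myelinated optic nerve (MON) was compared between 6 weeks (6 W) and 3 days (3 D) after microbead injection, directly, without taking either time relative to naïve nerve. The comparison rests on 4 of the 36 bulk RNA-seq libraries, chosen by their labels: the female pool and the male pool of MON at 3 D, and the female pool and the male pool at 6 W. The mice were C57BL/6, 2 to 4 months old, and beads were placed in the anterior chamber of 1 eye, which raises intraocular pressure (IOP) and is used as a model of glaucoma. Each library holds RNA of 2 mice of 1 sex, mixed in equal amounts, so each time has n = 2 pools of different mice, and the pools of a time differ in both their mice and their sex. MON was the first stretch of nerve behind the zone in which myelin begins, and the same mice also gave the unmyelinated nerve (UON) next to the eye and the retina. MON at 2 weeks (2 W) after injection and MON of naïve mice, which had no injection, each again 1 female and 1 male pool, are given beside the main values. A group injected without beads is not among the labels used here.

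The MON holds axons of retinal ganglion cells, oligodendrocytes that wrap them in myelin, astrocytes, microglia and oligodendrocyte precursors. When axons are injured, microglia and incoming monocytes take up debris, glial cells divide, and astrocytes and fibroblasts lay down extracellular matrix. In whole tissue, fewer cells of a type and less RNA per cell cannot be told apart.

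The 4 libraries held between 50949641 and 76726426 estimated counts. Levels are given as CPM, a gene's count divided by its library's total, scaled by TMM factors over the 12 MON libraries and brought to the usual common total. On log CPM the correlations between the 4 lay between 0.957 and 0.973. The 6 W pools were the closest pair (0.973), but the 3 D pools correlated at only 0.960 with each other. The 3 D male pool was closer to the 6 W male (0.971) and 6 W female (0.962) pools. The 3 D female pool had 0.966 with the 6 W male and 0.957 with the 6 W female pool. The libraries therefore did not group by time alone. The sex labels matched the sex-linked genes in 36 of 36 libraries. Myelin genes marked the tissue as labelled, with 118242 and 160847 summed CPM over 20 genes at 3 D (female and male pool) and 141325 and 141911 at 6 W. The 6 W female pool stood apart in 1 respect: 24 genes of surface epithelium, the keratin-bearing cell layer of conjunctiva and cornea, summed to 3977 CPM there. Their sum was 22.5 CPM in the 6 W male pool and 11.3 and 35.1 CPM in the 3 D female and male pools. The 2 W male pool, which enters the fit but not the comparison, held 2896 CPM of them, while the 2 W female pool held 21.0 and the naïve pools held 12.8 and 19.9. Results are therefore also given without the 6 W female pool. Those fits still hold the 2 W male pool, which also sets their term for sex. With edgeR the epithelial list's median log2 fold change was -1.07 in that setting, against 0.13 between the male pools. The part of these epithelial genes in other results was not tested.

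**Figure D1:**
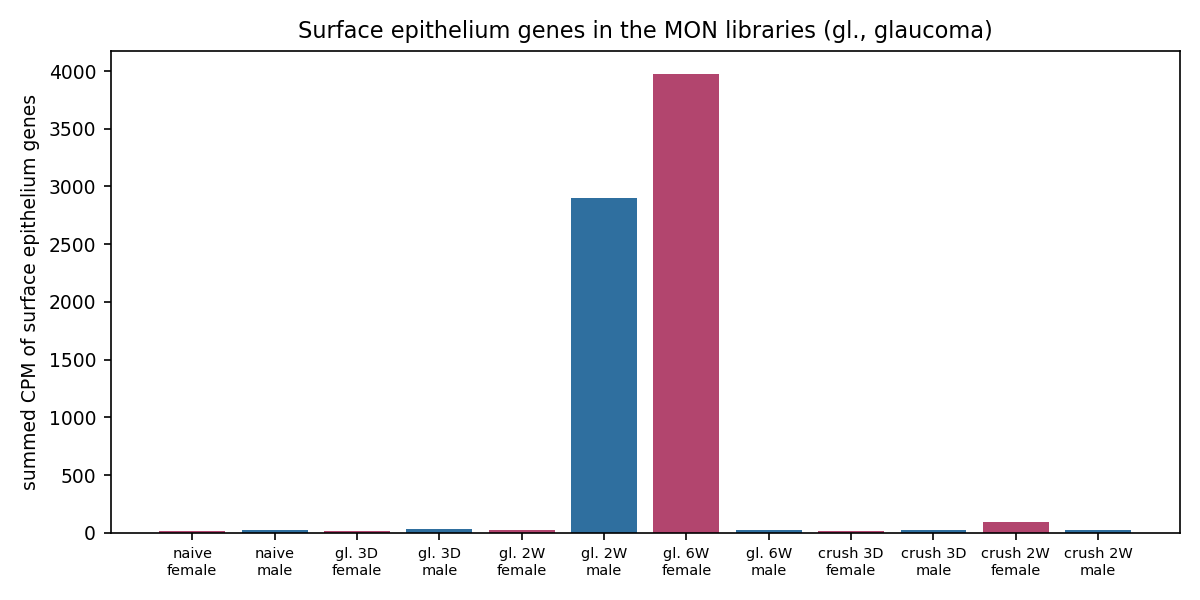
Summed CPM of 24 surface epithelium genes in each of the 12 MON libraries (1 bar per library, colored by sex; gl., glaucoma). The 6 W female pool (3977 CPM) and the 2 W male pool (2896 CPM) hold them, and the 3 D pools hold 11.3 and 35.1 CPM.

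Whether single genes differed between 6 W and 3 D depended on the tool, and the genes that DESeq2 called lower at 6 W included genes of matrix, myeloid cells and mitosis. With edgeR's quasi-likelihood test on the 6 MON glaucoma libraries (sex as a term), 0 of 21550 genes passed the limits, an adjusted p (Benjamini-Hochberg) under 0.05 together with an absolute log2 fold change over 1, in either direction (0% called). The smallest adjusted p was 0.345, and 1233 genes had an unadjusted p under 0.05, of which 799 were lower at 6 W (3.71% of genes tested) and 434 higher (2.01%). Among those 1233 genes, 83 had no count in both pools of 1 time. DESeq2 on the same libraries and terms called 205 genes lower (1.05% of 19526) and 51 higher (0.261%). With the DESeq2 model of the study, which adds the naïve libraries, the counts were 138 lower (0.627% of 22021) and 48 higher (0.218%), and 160 genes were called by both DESeq2 fits. Below, "called" refers to DESeq2 on the 6 libraries unless another fit is named, and edgeR's adjusted p for the genes named was between 0.345 and 0.975.

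The DESeq2 calls depended on single libraries. The number called over all genes also moved with the library left out, as given under the dependence on processing. Counts of list members in such fits, given below, are to be read beside that number. Of the 256 called genes, 34 were still called without the 6 W female pool and 88 without the 3 D female pool, 240 had an edgeR p under 0.05, and in 237 the pools of the 2 times did not overlap. Such separation is common here, with 4186 genes entirely lower (19.4%) and 3771 entirely higher (17.5%) at 6 W among the 21550.

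The 205 genes called lower at 6 W were mostly genes that stood above naïve MON at 3 D. Both sets of called genes were chosen by their 3 D and 6 W levels in these same pools. Their places relative to naïve MON and to 2 W are therefore partly set by that choice. Over all genes tested, the median log2 difference from naïve MON was 0.01 at 3 D and 0.02 at 6 W. For the 205 it was 1.86 at 3 D, 0.85 at 2 W and -0.31 at 6 W, and 195 of them were above naïve at 3 D. At 2 W, 167 of the 205 lay between their 3 D and 6 W levels. The level at 3 D differed between the sexes' pools: 161 of the 205 were higher in the 3 D female pool than in the 3 D male pool, 100 of them by more than 2 times. The median log2 ratio of 6 W over 3 D was -2.004 between the female pools and -1.44 between the male pools. The 51 genes called higher had medians of -1.24 at 3 D, 0.62 at 2 W and 0.9997 at 6 W relative to naïve MON, and 47 were below naïve at 3 D. Both 3 D pools had no count in 12 of these 51, and both 6 W pools had none in 16 of the 205. In 16 of the 51, the 6 W female pool exceeded the 6 W male pool by more than 10 times.

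Of 30 collagen chains and matrix proteins, 10 were called lower and 0 higher, and 20 had an edgeR p under 0.05 in that direction. In 22 of 30 (73.3%, against 19.4% of all genes) both 6 W pools lay below both 3 D pools. The median log2 fold change of the list was -1.27, against -0.02 for all genes tested, with -0.92 between the female pools and -1.59 between the male pools. Relative to naïve MON the median was 1.21 at 3 D and -0.17 at 6 W.

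Tenascin C (Tnc, ENSMUSG00000028364, chromosome 4 from 63959785 to 64047015 on GRCm38), a matrix glycoprotein laid down in wounds and glial scars, had 99.9 CPM in the 3 D female pool, 13.97 in the 3 D male pool, 3.58 in the 6 W female pool and 1.38 in the 6 W male pool. The times did not overlap, although the female pool at 3 D held several times the level of the male pool, and the naïve pools had 0.600 and 2.84 CPM. The fit gave -4.05 ± 0.44 on the log2 scale (SE; edgeR adjusted p = 0.594, DESeq2 adjusted p = 1.33e-18, and 4.55e-20 to 0.964 over 26 alternatives). By the DESeq2 model of the study, with the naïve libraries, Tnc was not called (adjusted p = 0.104). The fibril-associated collagen Col12a1 (ENSMUSG00000032332, chromosome 9 from 79598991 to 79718831) differed less between the sexes, with 24.1 and 18.5 CPM at 3 D (female and male pool) and 3.78 and 2.27 at 6 W. Both 6 W pools were below the naïve pools (5.99 and 6.78 CPM), and the log2 fold change was -2.84 ± 0.31 (edgeR adjusted p = 0.594, DESeq2 adjusted p = 2.47e-12, and 2.47e-12 to 0.849 over the alternatives). Fibronectin (Fn1, ENSMUSG00000026193, chromosome 1 from 71585520 to 71653200), the matrix protein that cells grip through integrins, was nearly equal in the pools of each time: 413 and 438 CPM at 3 D and 51.6 and 66.3 at 6 W, beside 74.3 and 127 in naïve MON. For Fn1 the estimate was -2.83 ± 0.54 (edgeR adjusted p = 0.718, DESeq2 adjusted p = 4.61e-07, and 2.05e-08 to 1 over the alternatives). On the scale of the deposited FPKM, which accounts for length, its mean was 49.7 ± 0.896 at 3 D and 7.07 ± 0.881 at 6 W (SD, n = 2).

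Basement membrane and fibrillar collagens were called as well. The basement membrane chain Col4a1 had 73.1 and 63.9 CPM at 3 D and 25.4 and 24.3 at 6 W (log2 fold change -1.46 ± 0.20), and its partner chain Col4a2 39.6 and 50.2 against 21.5 and 15.02 (-1.32 ± 0.26). In both genes all pools at 6 W were below those at 3 D and also below the naïve pools, which had 34.4 and 32.4 CPM of Col4a1 and 23.8 and 21.6 of Col4a2. Col5a2, Col6a1 and fibrillin (Fbn1), which build collagen fibrils, beaded filaments and microfibrils, had log2 fold changes of -1.68, -1.56 and -1.54. Sparc, a collagen-binding protein and the list's gene of highest CPM, had 1891 and 2598 CPM at 3 D and 2137 and 2061 at 6 W, so that its pools overlapped (log2 fold change -0.08 ± 0.19, positive in 4 of the fits that leave out a library).

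For the fibrillar collagens Col1a1 and Col3a1, the difference rested on the male pools. Col3a1 had 92.4 CPM in the 3 D female pool and 343 in the 3 D male pool, against 46.0 and 41.5 at 6 W, and Col1a1 had 58.0 and 184 against 31.1 and 27.9. Neither was called on the 6 libraries, and both were called by the model with naïve libraries. A list of 14 markers of fibroblasts of sclera and meninges, the cells around the nerve that make these collagens, had a like imbalance. The list includes Col1a1, Col1a2 and Col3a1, so its imbalance is in part that of the collagens themselves. The 14 summed to 627 and 1810.3 CPM at 3 D (female and male), 527 and 576 at 6 W, and 735 and 748 in naïve MON. None of the 14 was called, and 10 were called lower without the 3 D female pool, that is with the male pool alone at 3 D. Their median log2 ratio was -0.04 between the female pools and -1.87 between the male pools. The part of fibroblast RNA in the collagen result was not tested. Leaving out libraries moved the count of matrix genes called lower from 10 to 20 without the 3 D female pool, 5 without the 3 D male pool, 3 without the 6 W female pool and 5 without the 6 W male pool. Tnc, Col12a1 and Fn1 were the 3 that remained without the 6 W female pool.

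**Figure D2:**
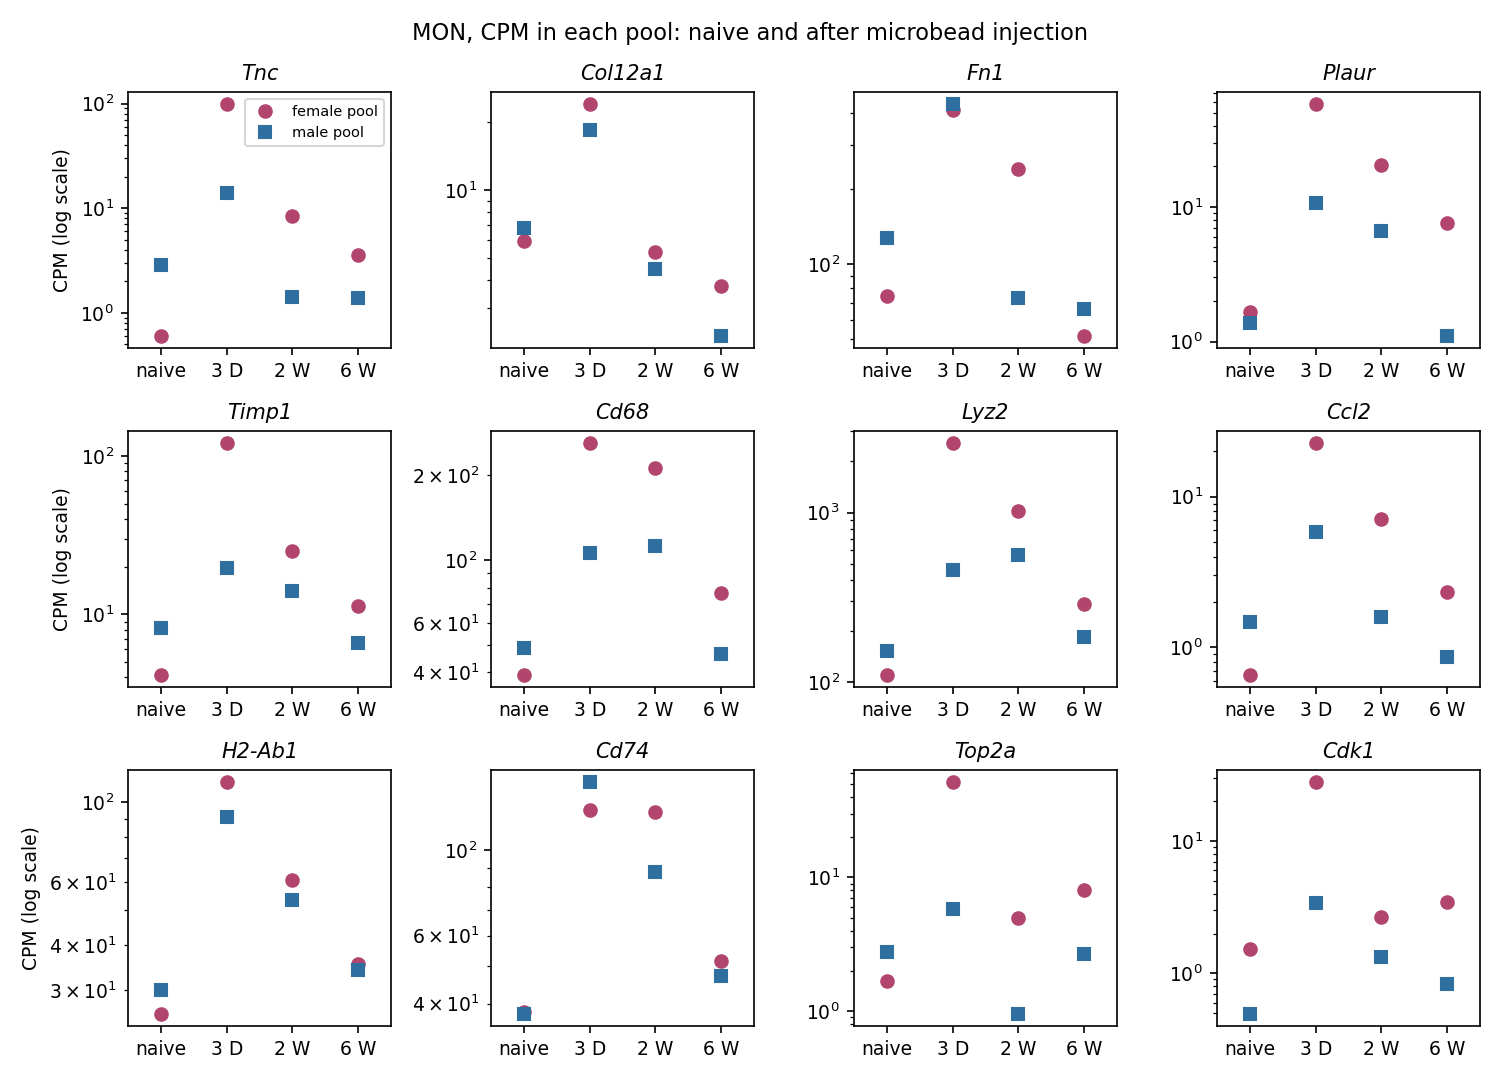
CPM on a log axis in the female (circle) and male (square) pool of MON, naïve and at 3 D, 2 W and 6 W, for 12 genes named in the text. Both 6 W pools lie below both 3 D pools for 10 of them. Top2a and Cdk1 overlap, because their 3 D male pools (5.82 and 3.38 CPM) lie below the 6 W female pools (8.09 and 3.45 CPM).

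Among 21 matrix proteases and their inhibitors, 3 were called lower and 0 higher (median log2 fold change -0.66), and 16 had separate pools with 6 W lower (76.2%, against 19.4% of all genes). Plaur (ENSMUSG00000046223), the urokinase receptor that holds plasminogen activation at the cell surface, had 58.5 and 10.7 CPM at 3 D (female, male), 7.57 and 1.10 at 6 W and 1.66 and 1.37 in naïve MON. The female pool exceeded the male pool at both times, by similar ratios, and the log2 fold change was -3.08 ± 0.35 (edgeR adjusted p = 0.594, DESeq2 adjusted p = 2.47e-12, and 2.47e-12 to 0.761 over the alternatives). Timp1, an inhibitor of metalloproteinases, had 121 and 19.5 CPM at 3 D and 11.3 and 6.60 at 6 W, with 4.13 and 8.20 in naïve MON (log2 fold change -2.59 ± 0.53). Mmp9, a gelatinase carried by myeloid cells, had 10.7 and 0.891 CPM at 3 D and 0.579 and 0.133 at 6 W, so most of its difference came from the 3 D female pool. Plat, tissue plasminogen activator, had 829.8 and 729 CPM against 529.9 and 561 (log2 fold change -0.52 ± 0.17) and was not called. Of the list, 2 genes were called lower without the 3 D female pool, 6 without the 3 D male pool and 1 (Plaur) without the 6 W female pool.

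Integrin subunits, the receptors for these matrix proteins, included 2 called lower among 18 (median -0.51). Itga5, the fibronectin receptor subunit, had 87.5 and 36.5 CPM at 3 D, 15.8 and 12.7 at 6 W and 11.6 and 7.71 in naïve MON (log2 fold change -1.96 ± 0.31). The laminin receptor subunit Itga7 was close within each time, with 32.8 and 31.1 CPM at 3 D and 15.2 and 16.03 at 6 W (-1.03 ± 0.18). Itgb4, another laminin receptor subunit, had 184 and 305 CPM against 323 and 317 and was not called (0.42 ± 0.24). Without the 6 W female pool 0 integrin subunits were called lower by DESeq2.

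**Figure D3:**
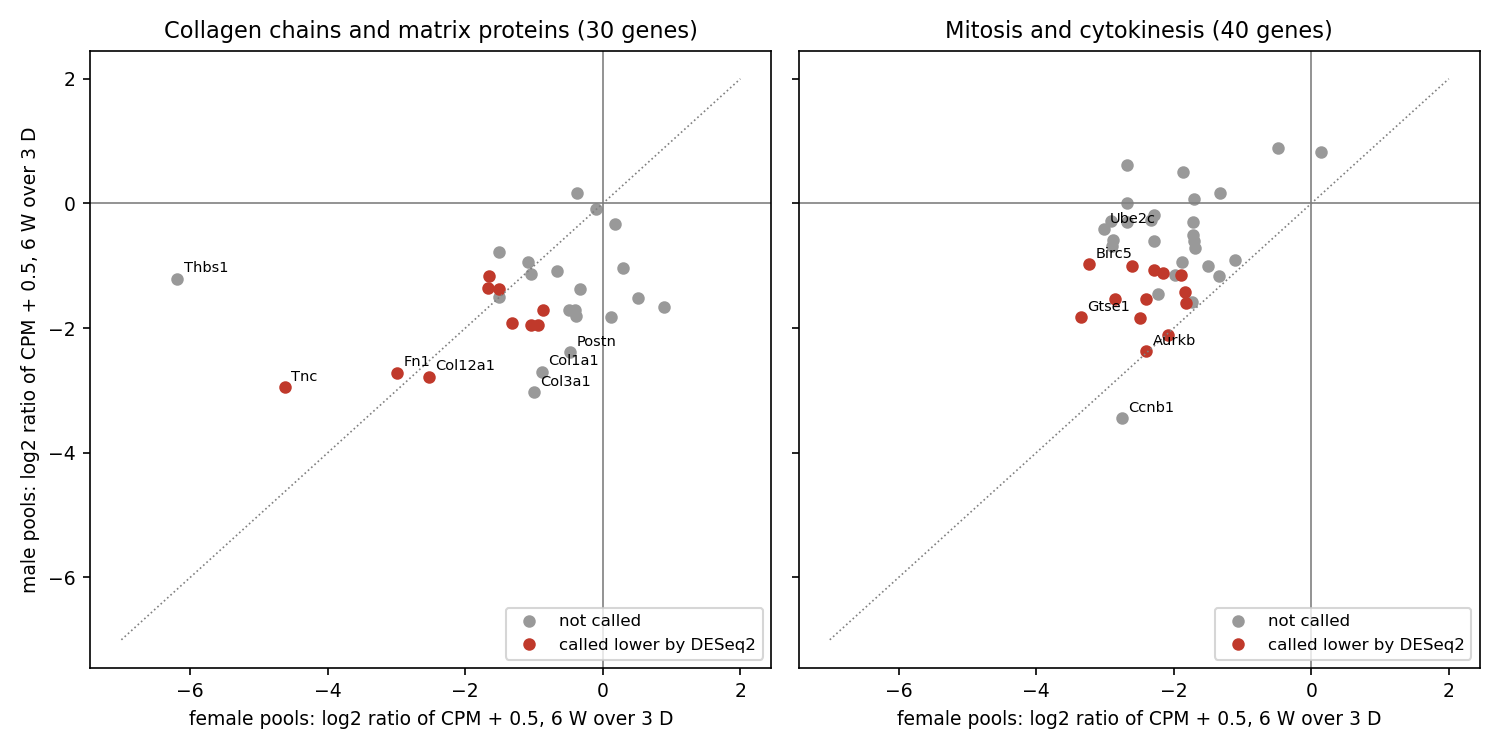
For each gene of 2 lists, the log2 ratio of 6 W over 3 D (on CPM + 0.5) between the female pools (horizontal) and the male pools (vertical), with genes called lower by DESeq2 in red and the dotted line marking equal ratios. Matrix genes had medians of -0.92 (female) and -1.59 (male), and mitosis genes -2.19 and -0.92.

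Some genes of monocytes, border macrophages and neutrophils were called lower at 6 W. Of 21 such genes, 2 neutrophil genes (Ngp and Camp) had too few counts to be tested, 6 were called lower and 0 higher. Their summed CPM was 825 and 521 at 3 D (female, male), 169 and 126 at 6 W, and 137 and 181 in naïve MON, but Fn1, also a matrix gene, carried much of them. Without Fn1 the sums were 412 and 82.7 CPM at 3 D, 118 and 59.9 at 6 W and 62.4 and 53.3 in naïve MON, so that the 3 D male pool lay below the 6 W female pool. Ccr2, the receptor that draws monocytes out of the blood, had 6.82 and 3.97 CPM at 3 D and 0.269 and 0.583 at 6 W, with 0.396 and 0.273 in naïve MON (log2 fold change -3.63 ± 0.66). F13a1, a clotting factor chain of monocytes and border macrophages, had 39.3 and 10.1 CPM against 1.94 and 2.50 (-3.12 ± 0.63), and Ms4a7, a membrane protein of macrophages, 19.3 and 5.54 against 1.99 and 0.583 (-3.26 ± 0.80). Fn1 and Mmp9, described above, and the platelet and macrophage chemokine Pf4 were the other 3. The neutrophil genes S100a8 (2.97 and 0 against 0.248 and 0 CPM) and S100a9 (1.71 and 0.170 against 0.372 and 0 CPM) had overlapping pools and were not called. Ltf, which encodes lactoferrin (0.545 and 0 against 34.5 and 0.733 CPM), and Plac8 (0.770 and 0.325 against 18.8 and 0.967 CPM) were not called and had separate pools with 6 W higher, most of it in the female pool with surface epithelium genes. The part of that pool's other cells was not tested, and these 4 were named after their values were seen. The number called lower was 0 without the 3 D female pool, 2 without the 6 W female pool (Fn1 and Ms4a7), 6 without the 3 D male pool and 5 without the 6 W male pool.

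The chemokines that attract such cells had a like pattern. Ccl2, the main ligand of the receptor encoded by Ccr2, had 22.9 and 5.84 CPM at 3 D and 2.34 and 0.867 at 6 W, with 0.655 and 1.48 in naïve MON. Its pools did not overlap, and the log2 fold change was -3.01 ± 0.38 (edgeR adjusted p = 0.594, DESeq2 adjusted p = 1.24e-09, and 1.24e-09 to 1 over the alternatives). Its neighbors in the same chemokine cluster on chromosome 11, Ccl7 (24.3 and 7.44 against 3.10 and 1.70 CPM) and Ccl12 (16.2 and 14.3 against 5.89 and 4.95 CPM), had log2 fold changes of -2.54 ± 0.37 and -1.50 ± 0.30. Ccl4, a chemokine of activated microglia and macrophages, was called lower (-1.17 ± 0.21), but its 6 W female pool (13.96 CPM) exceeded its 3 D male pool (5.99 CPM). In all, 4 of 22 chemokine and receptor genes were called lower and 0 higher, and the number was 1 without the 6 W female pool (Ccl2). The interferon-induced chemokine Cxcl10 had 12.96 and 18.4 CPM at 3 D and 26.0 and 23.9 at 6 W and was not called (0.68 ± 0.22).

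Markers of activated and phagocytic microglia were mostly lower at 6 W. Of 25, 5 were called lower and 0 higher, with a median log2 fold change of -0.74. In 15 (60%, against 19.4% of all genes) both 6 W pools lay below both 3 D pools, and in 0 above them. Within both sexes 20 were lower at 6 W and 2 higher. Lysozyme 2 (Lyz2), an enzyme of phagocytes, had 2580.1 CPM in the 3 D female pool and 459 in the male pool, against 291 and 186 at 6 W and 111 and 154 in naïve MON (-2.30 ± 0.49). Cd68, a lysosomal membrane protein of phagocytes, had 261 and 106 CPM at 3 D, 76.3 and 46.3 at 6 W and 39.2 and 49.0 in naïve MON (-1.49 ± 0.21). At 6 W both pools of Lyz2 and the female pool of Cd68 were above the naïve range. The scavenger receptor Msr1 (87.2 and 3.86 against 0.352 and 0.50 CPM) and osteopontin (Spp1, 6270.2 and 66.2 against 59.4 and 31.0 CPM) were dominated by the 3 D female pool, and Spp1 was not called. Gpnmb, a membrane glycoprotein of lipid-laden phagocytes, had 737 and 249 CPM against 156 and 145 (-1.59 ± 0.45), and the lysosomal protease Ctsb 3714 and 2099.9 against 1587 and 1323 (-0.95 ± 0.20, below the limit on fold change). Fth1, the iron store ferritin, had 13757 and 18208 CPM against 17499.8 and 18469 (0.18 ± 0.15). The number called lower was 3 without the 3 D female pool, 10 without the 3 D male pool and 1 (Msr1) without the 6 W female pool. Named outside the lists for their small p, the B cell and myeloid receptor Cd72 (30.6 and 14.6 against 5.17 and 3.87 CPM, -2.23 ± 0.27) and properdin (Cfp, which stabilizes the complement convertase; 35.9 and 13.5 against 1.24 and 1.57 CPM, -4.03 ± 0.54) were called lower with and without the 6 W female pool.

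Homeostatic microglia genes did not share a direction. Of 17, 1 was called lower and 1 higher (median -0.14). In each direction 4 had separate pools (23.5%), near the shares of all genes (19.4% lower, 17.5% higher). The complement chain C1qb had 744 and 873 CPM at 3 D and 654 and 515 at 6 W (-0.49 ± 0.22), and C1qa 307 and 308 against 269.8 and 205 (-0.39 ± 0.19). Fcrls, an Fc receptor-like gene of microglia, was called lower (-1.71 ± 0.29), though its 3 D male pool (26.5 CPM) lay below its 6 W female pool (30.6 CPM), and it was not called without the latter. The activating Fc receptor Fcgr3 (119.7 and 137 against 85.6 and 77.5 CPM) and the Rac activator Dock2 (52.8 and 29.0 against 23.6 and 24.3 CPM) had log2 fold changes of -0.67 ± 0.24 and -0.67 ± 0.31 and were not called.

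Cx3cr1, the fractalkine receptor of microglia, was the member called higher and had the smallest edgeR p among the genes with an official symbol that were higher at 6 W. It had 7.21 and 10.4 CPM at 3 D, 235 and 211 at 6 W, 388 and 252 at 2 W, and 6.07 and 23.1 in naïve MON. The pools of each time were close and the times far apart, and the fit gave 4.65 ± 0.34 on the log2 scale (edgeR adjusted p = 0.345, DESeq2 adjusted p = 6.04e-44, and 1.77e-70 to 0.867 over the alternatives). In FPKM its mean was 1.84 ± 0.271 at 3 D and 51.3 ± 1.49 at 6 W (SD, n = 2). Elsewhere its level split between the pools of a group: 9.93 and 126 CPM in UON at 6 W (female, male), 8.82 and 96.4 in UON at 3 D, and in MON after nerve crush 12.5 and 158 at 3 D and 597 and 23.8 at 2 W. Low and high values thus occurred side by side in single groups of nerve libraries.

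Of 4 genes of MHC class II antigen presentation, 3 were called lower at 6 W, and for these the pools of both sexes were close. The class II chains H2-Aa, H2-Ab1 and H2-Eb1 form the receptor that shows peptides to T cells, and Cd74 is the invariant chain that guards its groove. Their genes share promoter elements, among them an inverted CCAAT box called the Y box. The promoters of H2-Aa and H2-Eb1 are shown because both carry the 8-base Y box CTGATTGG, in capitals, at 51 and 62 bases before the start of the gene. A further CCAAT in H2-Eb1, 35 bases before the start, is also in capitals. They run from 250 bases before to 50 bases after the start in RefSeq on GRCm38.p6, 5′ to 3′ on the gene's strand, at chr17:34287774-34288073 (minus strand) and chr17:34305617-34305916 (plus strand).
H2-Aa: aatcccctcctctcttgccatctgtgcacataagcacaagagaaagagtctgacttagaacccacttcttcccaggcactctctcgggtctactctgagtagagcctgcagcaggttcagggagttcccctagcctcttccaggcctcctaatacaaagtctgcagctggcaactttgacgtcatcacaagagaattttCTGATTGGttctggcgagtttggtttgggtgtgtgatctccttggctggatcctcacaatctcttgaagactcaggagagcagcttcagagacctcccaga
H2-Eb1: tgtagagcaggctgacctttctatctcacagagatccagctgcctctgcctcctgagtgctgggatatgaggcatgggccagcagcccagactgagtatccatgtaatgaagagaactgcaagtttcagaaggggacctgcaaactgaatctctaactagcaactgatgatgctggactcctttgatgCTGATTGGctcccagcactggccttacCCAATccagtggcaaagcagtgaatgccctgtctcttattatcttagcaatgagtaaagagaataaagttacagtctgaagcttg
On either strand CTGATTGG is present in 4.1% of 32851 promoters of this length. The match is a description of the sequence.

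H2-Ab1 (ENSMUSG00000073421, chromosome 17 from 34257689 to 34269419) had 114 and 90.9 CPM at 3 D (female, male), 35.6 and 34.1 at 6 W and 25.8 and 30.1 in naïve MON. The pools of each time lay close together and the times were apart, and the estimate was -1.55 ± 0.18 on the log2 scale (edgeR adjusted p = 0.594, DESeq2 adjusted p = 2.35e-07, and 2.35e-07 to 1 over the alternatives). Cd74 had 127 and 150.4 CPM at 3 D and 51.6 and 47.1 at 6 W, with 38.2 and 37.6 in naïve MON (-1.50 ± 0.24, edgeR adjusted p = 0.718, DESeq2 adjusted p = 3.42e-05, and 3.11e-07 to 1 over the alternatives). H2-Aa had 35.8 and 28.2 CPM against 15.7 and 14.98 and was called lower (-1.05 ± 0.19). H2-Eb1 had 23.4 and 13.4 CPM against 8.73 and 9.78 and was not called (-0.94 ± 0.31). All 4 had 2 W pools between the times or overlapping the 3 D pools. None of the 4 was called without the 6 W female pool, where DESeq2 gave an adjusted p of 0.13 for H2-Ab1 and 0.144 for Cd74 at similar fold changes.

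In UON of the same mice the MHC class II genes were not lower at 6 W. Cd74 had 81.1 and 117 CPM in UON at 3 D (female, male), 187 and 192 at 6 W and 136 and 193 in naïve UON. For H2-Ab1 the UON values were 68.3 and 72.2 CPM at 3 D and 89.7 and 95.1 at 6 W, and for H2-Aa 30.1 and 31.1 at 3 D and 45.9 and 55.5 at 6 W. In all 3 genes both UON pools were higher at 6 W than at 3 D, whereas both MON pools were lower. In retina both pools were also lower at 6 W for these genes. Retinal Cd74 had 14.8 and 27.2 CPM at 3 D (female, male) and 11.1 and 7.34 at 6 W. Retinal H2-Eb1 was lower in the male pool but not in the female pool. The difference between the tissues' log2 fold changes (MON minus UON) was -2.45 ± 0.37 for Cd74, -1.98 ± 0.31 for H2-Ab1, -1.81 ± 0.34 for H2-Aa and -1.29 ± 0.43 for H2-Eb1. By edgeR's interaction test these had unadjusted p of 7.83e-05, 0.000127, 0.000387 and 0.0147 and an adjusted p of 1, and by DESeq2 adjusted p of 5.24e-05, 0.000501, 0.00423 and 0.493. The tissues share mice, which the fit did not model.

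**Figure D4:**
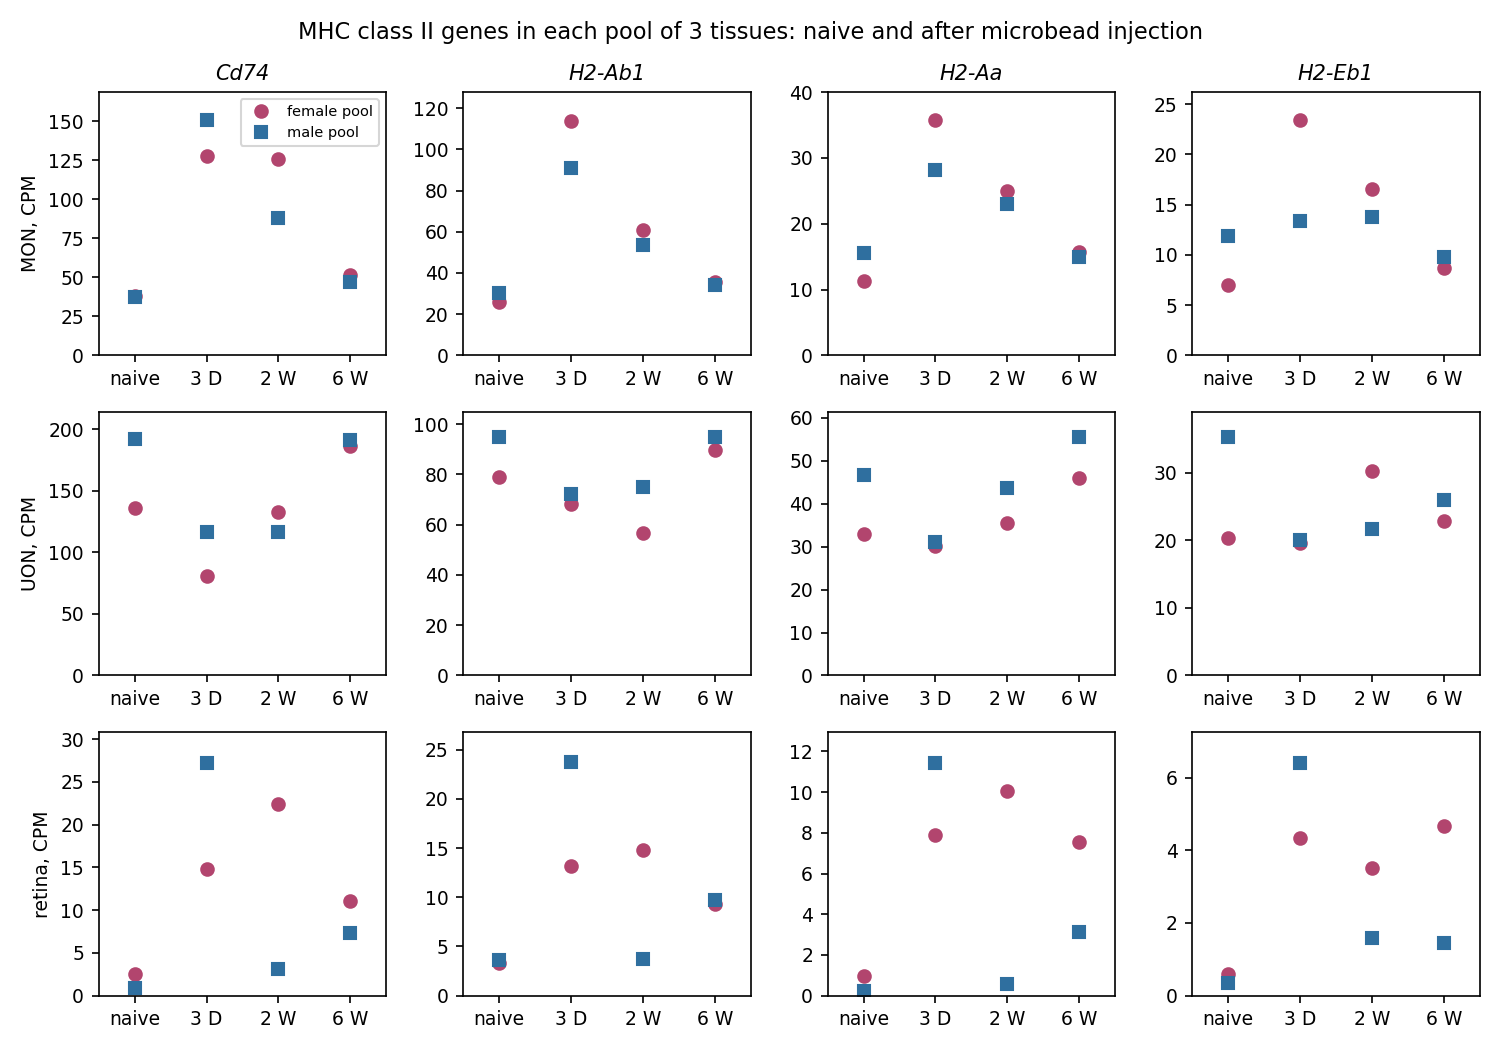
CPM of 4 MHC class II genes (columns) in MON, UON and retina (rows, each with its own axis from 0) in the female (circle) and male (square) pool, naïve and at 3 D, 2 W and 6 W. Cd74 is at 127 and 150.4 CPM at 3 D and 51.6 and 47.1 at 6 W in MON, and at 81.1 and 117 and then 187 and 192 in UON.

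Over the whole list of complement and antigen presentation genes, 5 of 23 were called lower and 0 higher. Beside H2-Aa, H2-Ab1 and Cd74 these were the receptors of the complement fragments C3a and C5a, C3ar1 (106 and 28.3 against 21.3 and 14.4 CPM, -1.70 ± 0.38) and C5ar1 (98.7 and 34.1 against 19.0 and 18.1 CPM, -1.58 ± 0.42). The complement component C4b had 2233 and 2809 CPM at 3 D and 3034 and 3850.4 at 6 W (0.45 ± 0.15), and the MHC class I gene H2-D1 had 1208 and 1201 against 1174 and 924 (-0.20 ± 0.18). Neither was called. The number called lower was 4 without the 3 D female pool and 0 without the 6 W female pool.

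Reactive astrocyte genes were lower at 6 W in part. By a common grouping that the study also used, PAN genes mark any reactive astrocyte, A1 genes a harmful state and A2 genes a helpful one. Of 13 PAN genes 4 were called lower, of 12 A2 genes 3, and of 13 A1 genes 0, with medians of -0.43, -1.07 and -0.12 and 0 called higher. Differences between the 3 lists were not tested. Of the A1 genes 1 was called lower without either 3 D pool. Of the PAN genes, 1 was called lower without the 3 D female pool, 0 without the 6 W female pool and 1 without the 6 W male pool.

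Gfap, the intermediate filament of astrocytes, had 9998 and 13201 CPM at 3 D and 13505 and 11428 at 6 W, so that its pools overlapped (0.11 ± 0.19). The PAN genes called lower, beside Timp1, were the metalloreductase Steap4 (2.57 and 2.86 against 0.165 and 0.350 CPM, -3.56 ± 0.72), lipocalin 2 (Lcn2, 5.43 and 14.6 against 1.72 and 4.38 CPM, -1.70 ± 0.33) and the protease inhibitor Serpina3n (1466 and 1142 against 589 and 680.2 CPM, -1.05 ± 0.25). All 3 had separate pools. For Lcn2 the naïve pools spanned 1.23 to 30.3 CPM, a wider range than either time. Among A2 genes, Sphk1, which makes sphingosine 1-phosphate, had 15.1 and 12.8 CPM at 3 D, 2.92 and 1.60 at 6 W and 1.86 and 7.05 in naïve MON (-2.66 ± 0.40). Tm4sf1 (202 and 67.7 against 47.6 and 36.2 CPM) and the endotoxin coreceptor Cd14 (53.9 and 63.6 against 31.1 and 22.4 CPM) had log2 fold changes of -1.52 ± 0.32 and -1.18 ± 0.32. B3gnt5, a glycosyltransferase of the A2 list, was low throughout (2.03 and 1.27 against 0.517 and 0.350 CPM) and not called. The complement component C3 had 179 and 234 CPM at 3 D and 426 and 254 at 6 W (0.77 ± 0.46), a difference that turned to -0.11 without the 6 W female pool. Without the 6 W female pool Sphk1 was the 1 gene of the 3 lists that remained called lower. Astrocyte genes of the resting state showed no shared direction, with 0 of 16 called (1 lower without the 3 D male pool) and a median of 0.13.

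Immediate early genes, which are transcribed within minutes of a stimulus, had 4 members called lower among 18 and 0 higher (median -0.80). The zinc finger factor Egr1 had 78.7 and 29.9 CPM at 3 D, 26.6 and 8.08 at 6 W and 15.01 and 8.85 in naïve MON. The pools did not overlap, but the 6 W female pool was close to the 3 D male pool. The log2 fold change was -1.72 ± 0.21 (edgeR adjusted p = 0.594, DESeq2 adjusted p = 4.61e-07, and 4.61e-07 to 0.761 over the alternatives). The matricellular proteins Ccn1 (341 and 68.8 against 43.0 and 39.8 CPM, -1.88 ± 0.53) and Ccn2 (183 and 390.1 against 42.0 and 79.4 CPM, -2.22 ± 0.43) had opposite sexes on top at 3 D. For Ccn2 the 6 W female pool was below both naïve pools (77.96 and 101 CPM) and the 6 W male pool between them. Egr2, a related factor, had 7.21 and 8.14 CPM against 2.98 and 0.367 (-2.98 ± 0.89). Egr1, Egr2 and Ccn2 were also called without the 6 W female pool.

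Genes induced by other stress signals were called singly. Of 22 p53 targets, 2 were lower: Cdkn1a, which encodes the cell cycle inhibitor p21 (145 and 71.3 against 22.4 and 43.0 CPM, -1.67 ± 0.49), and Pmaip1, which encodes the cell death factor Noxa (13.1 and 3.42 against 1.68 and 1.07 CPM, -2.37 ± 0.51). The 6 W pools of Cdkn1a lay below the naïve pools (58.1 and 78.9 CPM). The angiogenesis inhibitor Thbs1 (171 and 5.005 against 1.86 and 1.88 CPM) was dominated by the 3 D female pool and was not called (-4.49 ± 1.44). Of 18 genes of gp130 and Stat3 signaling, mostly ligands, receptors and kinases, 1 was called lower, the feedback inhibitor Socs3 (103 and 42.6 against 19.8 and 26.1 CPM, -1.57 ± 0.42). Of the gp130 and Stat3 list 3 were called lower without the 3 D male pool. Of the p53 targets 4 were called lower without the 3 D male pool, 1 without the 6 W male pool and 0 without the 3 D female pool. Without the 6 W female pool 0 genes of either list were called lower by DESeq2.

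Of 40 mitosis and cytokinesis genes, 13 were called lower and 0 higher, and the DESeq2 model of the study called 4 lower. An edgeR p under 0.05 was found for 21, and 11 (27.5%, against 19.4% of all genes) had separate pools with 6 W lower. The median log2 fold change was -1.83, with -2.19 between the female pools and -0.92 between the male pools, and the list's median difference from naïve MON was 2.34 at 3 D and 0.45 at 6 W. Summed CPM was 946 in the 3 D female pool and 291 in the 3 D male pool, against 387 and 372 at 6 W and 350.0 and 280.4 in naïve MON. The 3 D female pool alone exceeded the other sums, to which Anln, also a myelin protein, adds much (216 and 174 CPM at 3 D, 239 and 310.3 at 6 W). The number called lower was 1 without the 3 D female pool, 4 without the 6 W female pool, 6 without the 6 W male pool and 16 without the 3 D male pool. In UON, where no gene was called by edgeR either, the median of the same 40 genes was -3.60.

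The promoters of Top2a, a DNA topoisomerase of dividing cells, and of Cdk1, the kinase that drives entry into mitosis, are shown for 2 motifs common in genes of this phase. In capitals are the CCAAT box (CCAAT, or ATTGG on the other strand) and the core of the cell cycle homology region (TTTGAA, or TTCAAA on the other strand). Top2a has 6 CCAAT boxes, the nearest 58 bases before the start, and TTTGAA at 179 and 23 bases before it. Cdk1 has 3 CCAAT boxes, at 208, 80 and 48 bases, and TTTGAA at 71 and 15 bases. The windows are at chr11:99024140-99024439 and chr10:69352863-69353162 on GRCm38.p6 (RefSeq, both minus strand, 5′ to 3′).
Top2a: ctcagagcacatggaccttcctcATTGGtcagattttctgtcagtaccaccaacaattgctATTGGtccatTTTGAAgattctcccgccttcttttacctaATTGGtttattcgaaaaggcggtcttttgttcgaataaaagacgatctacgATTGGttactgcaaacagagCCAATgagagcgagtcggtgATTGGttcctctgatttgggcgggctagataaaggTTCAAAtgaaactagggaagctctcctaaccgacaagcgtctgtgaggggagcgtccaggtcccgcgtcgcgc
Cdk1: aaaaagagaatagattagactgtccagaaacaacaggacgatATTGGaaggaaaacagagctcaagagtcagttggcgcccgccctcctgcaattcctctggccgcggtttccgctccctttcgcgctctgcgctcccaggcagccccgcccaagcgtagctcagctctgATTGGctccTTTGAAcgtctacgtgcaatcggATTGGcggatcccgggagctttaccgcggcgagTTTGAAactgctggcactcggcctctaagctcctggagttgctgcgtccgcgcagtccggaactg
Of the 40 mitosis genes, 34 had a promoter in the table, and 25 of these (73.5%) held CCAAT and 23 (67.6%) TTTGAA on either strand, against 37.4% and 17.9% of 32851 promoters. ATTGG is contained in the Y box CTGATTGG.

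Cdk1 (ENSMUSG00000019942, chromosome 10 from 69335146 to 69352938) had 28.2 CPM in the 3 D female pool, 3.38 in the 3 D male pool, 3.45 in the 6 W female pool and 0.833 in the 6 W male pool. Top2a (ENSMUSG00000020914, chromosome 11 from 98992943 to 99024189) had 52.0, 5.82, 8.09 and 2.67 CPM in the same order. For both genes the male pool at 3 D was at or below the female pool at 6 W, so the times overlapped, while within each sex 6 W was lower. Their log2 fold changes were -2.61 ± 0.58 and -1.91 ± 0.44 (edgeR adjusted p = 0.736 for each, DESeq2 adjusted p = 0.000632 and 0.0033, with 4.63e-05 to 1 and 5.72e-05 to 1 over the alternatives). In UON both pools were high at 3 D and low at 6 W, with 52.4 and 60.8 CPM of Top2a against 4.04 and 1.69.

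Of the mitosis genes with separate pools, the spindle protein Gtse1 had 12.4 and 4.00 CPM at 3 D and 0.765 and 0.767 at 6 W (-3.22 ± 0.58), and the chromosome kinase Aurkb 15.3 and 3.12 against 2.50 and 0.200 (-3.07 ± 0.82). Cyclin B2 (Ccnb2, 14.8 and 2.83 against 2.38 and 0.650 CPM) and the checkpoint kinase Bub1 (9.48 and 1.29 against 1.28 and 0 CPM) were called lower, and cyclin B1 (Ccnb1, 36.6 and 6.57 against 5.03 and 0.150 CPM) was not. Mki67, which encodes the proliferation antigen Ki-67 (38.1 and 5.81 against 8.60 and 0.967 CPM), and the scaffold Iqgap3 (14.6 and 3.03 against 3.78 and 0.667 CPM) were called with overlapping pools. Aurkb and Mki67 were still called without the 6 W female pool. In G1 and S phase, cyclin D1 (Ccnd1) had 371 and 303 CPM at 3 D, 174 and 148 at 6 W and 135 and 168 in naïve MON, with the pools of each time close (-1.06 ± 0.16). Among 32 replication genes 2 were called lower: the factor E2f1 (7.51 and 1.41 against 0.496 and 0.283 CPM) and the licensing factor Cdt1 (8.19 and 3.14 against 2.11 and 1.07 CPM). Of the replication genes 5 were called lower without the 3 D male pool, 1 without the 6 W male pool, and 0 without the 3 D female pool or the 6 W female pool. The median of that list was -1.15 between the female pools and 0.02 between the male pools. The inhibitor Cdkn2c was not called (14.5 and 10.2 against 8.62 and 8.33 CPM, -0.55 ± 0.37).

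Apart from Cx3cr1, the genes with the smallest p that were higher at 6 W did not belong to the lists. Crb2, a cell polarity protein, had 14.9 and 18.6 CPM at 3 D, 45.7 and 45.0 at 6 W, 57.7 and 59.5 at 2 W and 38.9 and 18.3 in naïve MON (1.44 ± 0.19). Nudcd3, a chaperone partner, had 45.2 and 44.9 CPM at 3 D, 99.5 and 106 at 6 W and 114 and 98.7 in naïve MON (1.19 ± 0.17). In both genes the pools of each time nearly coincided, and for Nudcd3 the 3 D pools were the ones that differed from naïve. The proteoglycan Spock3 had 55.8 and 49.5 CPM against 108 and 128 (1.16 ± 0.20), and the zinc finger gene Zfp874b 1.03 and 1.78 against 8.27 and 8.20 (2.59 ± 0.41). Heca, the homolog of the fly gene headcase, had 0.545 and 0.551 CPM at 3 D and 5.79 and 7.92 at 6 W (3.63 ± 0.41), but its FPKM means were 0.899 ± 0.35 and 1.34 ± 0.0726 (SD, n = 2), so the size of its difference depended on the unit. The same held for Zfp874b, with FPKM means of 1.26 ± 0.38 and 1.87 ± 0.00448 (SD, n = 2). All 5 were called higher, with edgeR adjusted p between 0.594 and 0.718. In other tissues some of them split between the pools of a group. Nudcd3 had 142 and 41.8 CPM in UON at 6 W (female, male) and 55.3 and 127 in naïve UON, while its retinal pools were close. Heca had 6.73 and 0.592 CPM in UON and 16.3 and 0.719 in retina at 3 D. Zfp874b had 5.38 and 0.908 CPM in UON at 3 D, but 18.0 and 17.0 in retina. Over the alternatives the adjusted p of Heca ran from 1.04e-11 to 0.893, and it and Cx3cr1 were still called without the 6 W female pool.

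Myelin and the oligodendrocyte lineage showed no shared shift. Of 20 genes of mature oligodendrocytes and myelin 0 were called by either tool, and the median was 0.11. Separate pools were found for 1 with 6 W lower (5%, against 19.4% of all genes) and 5 with 6 W higher (25%, against 17.5%). Mbp, a main protein of compact myelin, had 59847 and 96057 CPM at 3 D and 83300.1 and 79294 at 6 W. Its pools overlapped, with a log2 fold change of 0.09 ± 0.21. Precursor genes (16 genes, median 0.27) and cholesterol synthesis genes (23 genes, median 0.12), which supply myelin lipid, also had 0 called genes, as in Bcas1 (814 and 1593 against 1784 and 1587 CPM) and Hmgcs1 (654 and 839.9 against 769 and 908 CPM). Interferon-stimulated genes had 0 of 24 called, 1 lower without the 6 W female pool, and a median of -0.00. Among 16 housekeeping genes the median was -0.02 and 1 was called lower, the lysosomal enzyme Gusb (177 and 78.6 against 55.1 and 42.8 CPM, -1.26 ± 0.26). The number was 0 without either female pool and 2 without the 3 D male pool.

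**Figure D5:**
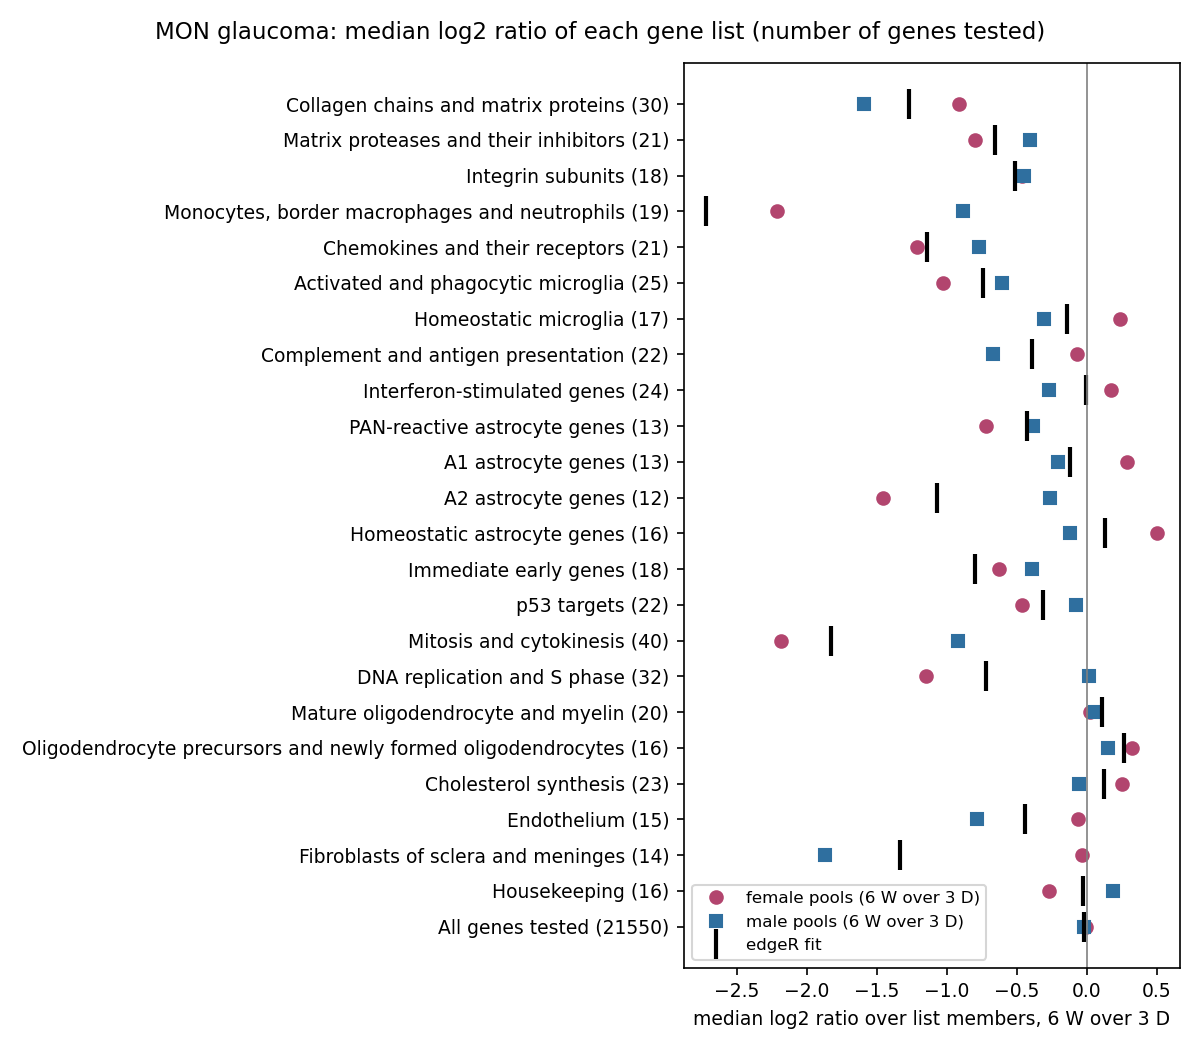
Median log2 ratio of 6 W over 3 D for gene lists (number of genes tested in brackets): female pools (circle), male pools (square) and the edgeR fit (bar). Matrix (-1.27), monocyte (-2.72) and mitosis (-1.83) lists lie left of all genes (-0.02), and myelin (0.11) and housekeeping (-0.02) lists lie near them. For fibroblasts the female and male medians are -0.04 and -1.87.

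The surface epithelium list gave 4 of the genes called higher, carried by 1 library. The epithelial keratins Krt15 (0.0939 and 0.396 against 793 and 4.43 CPM), Krt4 (0.169 and 0.0707 against 675 and 2.28 CPM), Krt13 (0.0939 and 0.0566 against 217 and 1.083 CPM) and Krt16 (0 and 0 against 64.0 and 0 CPM) were high in the 6 W female pool. Krt14, which marks basal cells, had 950.2 CPM there, 0.150 in the 6 W male pool and 39.2 in the 2 W male pool. None of these 4 keratins was called by DESeq2 without the 6 W female pool.

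The change from 3 D to 6 W was also set against that in the other tissues of the same mice. UON on its own had 0 genes called by edgeR (614 of 21281 at an unadjusted p under 0.05) and retina 2 higher and 0 lower. The MON minus UON difference passed edgeR's interaction test for 0 of 24164 genes, with 851 at an unadjusted p under 0.05, and DESeq2's for 36 of 21794 (0.165%). For MON minus retina the counts were 0 of 25637 by edgeR, with 1671 at an unadjusted p under 0.05, and 170 of 22693 by DESeq2 (0.749%). Cx3cr1 and Col12a1 were among the latter. Retinal Cx3cr1 was 8.60 and 12.5 CPM at 3 D and 11.3 and 9.58 at 6 W (female, male), and the difference was 4.71 ± 0.54 (unadjusted p = 1.30e-05). Col12a1 had a difference of -3.30 ± 0.48 (unadjusted p = 7.47e-05).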

How the data were processed

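RNA was extracted with TRIzol and sequenced from low input. The authors aligned reads with HISAT2 (2.2.1) to GRCm38 and quantified genes with StringTie (1.3.0), and deposited estimated counts per gene as whole numbers and FPKM values. A read pair adds about 4 estimated counts, so precision is lower than totals imply, and whether counting used strand is not given in the sources used here. Library totals were 50949641 to 76726426 in the 4 libraries compared.

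Genes were kept by filterByExpr (minimum count 10, minimum total 15). The 3 D, 2 W and 6 W glaucoma libraries of MON were fitted in R 4.3.3 with edgeR 4.0.16 (TMM, quasi-likelihood F test, terms for time and sex; 2 residual degrees of freedom). The 2 W libraries add to the estimates of spread and of the sex term. Genes were called where the adjusted p was under 0.05 and the log2 fold change was beyond 1 either way. DESeq2 1.42.0 and limma 3.58.1 (on log2 of the deposited FPKM plus 1 or 0.1) served as alternatives, as did other filters, scalings and sample sets. Ratios between pools of 1 sex used CPM plus 0.5. Tissue differences were interaction terms. The SE given with a log2 fold change was derived from edgeR's test, as the absolute log2 fold change divided by the square root of F. Each pool was 1 sample. In the main edgeR fit, p-values rest on the spread left among the 6 MON glaucoma pools after the terms for time and sex. That spread was drawn toward the spread of all genes (prior degrees of freedom 3.35). The edgeR and DESeq2 tests were checked on simulated counts.

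Since fewer than 10 genes passed, the rule named the 8 smallest p-values in each direction, for each gene list the member with the highest mean CPM, and the genes the study names for these tissues. Genes called by DESeq2 in the lists, up to 4 each, and the smallest p-values of DESeq2 and of the tissue differences were added after the data were seen, as were further members printed in the text. Of 126 genes so named, 35 are not described; 34 of these were tested, none was called by DESeq2, and 6 changed sign in the edgeR fit without the 6 W female pool. The members and the 34 lists were chosen with earlier results of these data known.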

Additional observations from a re-analysis of the deposited data

Results flagged for a closer look

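Surface epithelium genes summed to 2896 CPM in the 2 W male pool of MON, against 12.8 and 19.9 CPM in the naïve pools. That pool enters the fit through the shared spread and the sex term. It drew attention because it stands above the control level in a library outside the comparison.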

How the results depend on the processing

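Against 0 genes higher and 0 lower at 6 W, DESeq2 on the same libraries called 51 and 205, the study's DESeq2 model 48 and 138, edgeR on the 4 compared libraries alone 21 and 6, edgeR on all MON libraries 0 and 2, edgeR without a filter on low counts 1 and 2, and limma on log2 FPKM 3 and 0 with a pseudocount of 1 and of 0.1. Without the 6 W female and 2 W male pools, the naïve and glaucoma libraries gave 19 and 32 by edgeR and 13 and 64 by DESeq2, an alternative added after the data were seen. Both counts stayed at 0 with edgeR on the naïve and glaucoma libraries, other scalings, a minimum count of 50, no sex term and counts divided by 4. Leaving out 1 library gave 0 to 86 genes higher and 0 to 41 lower by edgeR, where the 2 W female pool (86 and 41), the 2 W male pool (63 and 40), the 6 W male pool (18 and 6) and the 6 W female pool (3 and 2) changed the counts. By DESeq2, also added later, the ranges were 23 to 279 and 67 to 276: 134 and 276 without the 3 D male pool, 279 and 245 without the 3 D female pool, 107 and 142 without the 6 W male pool, and 23 and 67 without the 6 W female pool. The MON minus UON difference gave 36 genes by DESeq2 and 0 to 2 leaving out a library; MON minus retina gave 170 by DESeq2, 2 with a sex term for each tissue and 0 to 11 leaving out a library. The cause of these differences was not tested.

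Over the named genes, log2 fold changes kept their direction in 2286 comparisons without and 383 with a pass of the limits, and turned in 28. By edgeR, leaving out 1 library gave log2 fold changes of -0.146 to 0.369 for Gfap, -0.223 to 0.453 for Mbp, -0.278 to 0.15 for Sparc, -0.106 to 1.44 for C3, -2.93 to 15.2 for Krt14 and -1.06 to 20.4 for Krt16. By DESeq2 the direction turned without the 3 D female pool for Gfap (-0.091) and Mbp (-0.235), without the 6 W female pool for Gfap (-0.13), Mbp (-0.106), C3 (-0.090), Krt14 (-5.36), mt-Rnr1 (0.020) and mt-Atp8 (0.027), and for Sparc without the 3 D male pool (0.148) and the 6 W male pool (0.072). It was 0 for mt-Rnr1 and mt-Atp8 without the 3 D female pool and for Krt16 without the 6 W female pool. With the naïve libraries and without the 6 W female and 2 W male pools Gfap was at -0.010 (DESeq2), Mbp at -0.017 (edgeR) and -0.047 (DESeq2), Krt14 at -0.229 and -0.26, and Krt16 at 0 (DESeq2). The 3 D and 6 W pools came from different mice, so the times could not be paired, and sex is a term of the fit. For the tissue differences, pools of the same time and sex share mice, but the fits did not pair them. With 2 pools of each time, and counts that overstate the reads behind them, differences in genes of low CPM are the least certain.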

Other observations

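Vascular and glycolysis lists each had 1 gene called lower and 0 higher, where 1.05% of all genes tested were called lower. Of 15 endothelial genes 1 was called lower at 6 W by DESeq2, Esm1, a secreted proteoglycan of sprouting endothelium, with 54.3 and 17.5 CPM at 3 D (female, male), 6.83 and 6.93 at 6 W and 3.19 and 1.75 in naïve MON (log2 fold change -2.14 ± 0.43). Of 12 genes of pericytes and smooth muscle 1 was called lower, the actin-binding protein Cnn1 (6.27 and 3.46 against 1.37 and 0.850 CPM, -2.11 ± 0.45), and of 20 glycolysis and hypoxia genes 1, the vasodilator peptide Adm (36.3 and 20.6 against 12.2 and 7.55 CPM, -1.51 ± 0.23). All 3 had separate pools, and none was called without the 6 W female pool. Without the 3 D male pool 2 endothelial, 2 glycolysis and hypoxia and 0 mural genes were called lower, and without the 3 D female pool 1, 0 and 3. The medians were -0.44 for endothelial, -0.23 for mural and -0.25 for glycolysis and hypoxia genes, against -0.02 for all genes. In the same order, 46.7%, 25% and 45% had separate pools with 6 W lower, against 19.4% of all genes. Separate pools with 6 W higher were found for 0%, 0% and 5%, against 17.5%.

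RNAs of blood and retina varied between pools of a time. Genes of red blood cells summed to 638 and 335 CPM at 3 D and 165 and 842 at 6 W, so that the sexes went in opposite directions. Photoreceptor genes summed to 112 CPM in the 3 D female pool and to 45.6, 40.9 and 45.4 CPM in the 3 D male, 6 W female and 6 W male pools, and 5 of 13 were called lower without the 3 D male pool. Cacna1f, a calcium channel subunit of photoreceptors, had 0.902 and 1.27 CPM at 3 D and 0 in both 6 W pools, and the smallest p of the MON minus retina difference among genes with an official symbol (unadjusted p = 2.78e-06).

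Several genes with small p-values were at 0 in whole pools. The protocadherin gene Pcdhb17 had 0 CPM in both 3 D pools and both 2 W pools, 11.2 and 13.6 at 6 W, and 11.5 and 0 in naïve MON. The mitochondrial genes mt-Rnr1 (a ribosomal RNA) and mt-Atp8 (an ATP synthase subunit) had 886 and 437 CPM in the 3 D female pool and 0 in the 3 D male pool and both 6 W pools. The mitochondrial transfer RNA gene mt-Tw had 4.18 and 4.52 CPM at 6 W and 0 in both 3 D pools. The zinc finger gene Zfp708 had 4.94 and 4.30 CPM at 6 W, 0 and 0.0283 at 3 D and 0 in both naïve pools.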
